A study of Saccharomyces cerevisiae with 4 samples.

Results

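Mediator, SAGA and TFIID are the large co-activator complexes through which RNA polymerase II and the TATA-binding protein (TBP) reach promoters in Saccharomyces cerevisiae, and the transcripts of their subunits were compared between an RSC mutant and its wild type. Members were taken by gene symbol (MED, TAF, SRB or SGF followed by a number, with the older names of the same subunits found through RefSeq synonyms) and by a list of subunits that also held TBP (SPT15) and its regulator MOT1. The rule gave 55 genes, of which 54 were measured among 5343 genes on the array: 24 of Mediator, 14 of SAGA alone, 5 TBP-associated factors (TAFs) shared by SAGA and TFIID, 9 other TAFs, and SPT15 and MOT1. SRB4 (MED17), a Mediator head subunit, was not analysed here. Each member was read by 1 probe set.

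Samples were 2 arrays of WT (BY4743) and 2 arrays of the nps1-13 strain (BYI-3), both pre-grown at 28 °C in YPD and then kept for 4 h in YPEG, whose carbon sources, ethanol and glycerol, are used by respiration. According to the strain list, both strains are MATa/α diploids and homozygous for the his3Δ1, leu2Δ0 and ura3Δ0 alleles. WT carries 1 functional copy each of MET15 and LYS2 beside met15Δ0 and lys2Δ0, whereas BYI-3 is homozygous for met15Δ0. BYI-3 is also homozygous for nps1-13, an allele of NPS1/STH1, the ATPase gene of the chromatin remodelling complex RSC. Each genotype was 1 strain. The labels call the arrays replicates without saying that they came from separate cultures, so p-values measure only the spread between these arrays, which may be technical. With 2 arrays against 2, no permutation of the labels can reach the threshold, and the tests given are limma's moderated tests across all genes with Benjamini-Hochberg adjustment.

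Mediator bridges DNA-bound activators and RNA polymerase II. Its head and middle modules contact the polymerase, its tail receives activators, the scaffold subunit Rgr1 joins them, and a detachable kinase module (Ssn3 with its cyclin Ssn8, and Srb8 and Ssn2) limits polymerase binding. SAGA acetylates histones through Gcn5, removes ubiquitin from histone H2B through Ubp8, and delivers TBP through Spt3 and Spt8. TFIID consists of TBP and the TAFs, and Mot1 uses ATP to pull TBP off DNA.

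Strain markers of mating type and LEU2 went against the listed genotype of the mutant, whereas MET17 and its listed met15Δ0 did not conflict. Deposited signals of HMRA1, the a1 gene, averaged 1747.5 in WT and 3.5 in nps1-13, whereas MF(ALPHA)1, encoding the α-factor pheromone, averaged 43.3 and 6169. All 4 α-specific and all 6 haploid-specific genes of the marker lists were higher in nps1-13 on all 4 signal scales described below, and 2 of 5 a-specific genes were lower. LEU2 averaged 25.6 in WT and 4336 in nps1-13. MET17, which is the MET15 gene, averaged 3961 and 16.9. STH1, the gene that carries the nps1-13 allele, averaged 4694.5 in WT and 6971.5 in nps1-13 and was higher on all 4 scales. LYS2 averaged 1289 and 1299. Both nps1-13 arrays carried these values, so none of the differences below can be given without them, and the nps1-13 allele and the other differences between the strains cannot be told apart.

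The arrays also differed in overall signal. Deposited signals are in the scanner software's arbitrary units. Their median was 3051 for WT replicate 1 and 2770 for WT replicate 2, but 2158 for nps1-13 replicate 1 and 2024 for nps1-13 replicate 2. Here each array was centred on its median log2 signal, which added 0.48 to every log2 fold change (nps1-13 minus WT) relative to the deposited signals. The median log2 fold change over all genes was 0.07 after centring, -0.41 as deposited, -0.07 with a common trimmed mean and -0.01 after quantile normalization. Of the 54 members, 23 took the opposite sign as deposited, 4 with the trimmed mean and 3 after quantile normalization. A direction below therefore refers to the centred scale, with the other scales named where they change it. The cause of the difference in overall signal was not tested. For any transcript in such bulk RNA, fewer cells that carry it and less of it per cell cannot be told apart. Members were well measured on every array, with deposited signals between 434.8 and 9334.3. Correlations of log2 signal across the 5343 genes were 0.996 between the WT arrays, 0.995 between the nps1-13 arrays and 0.916 to 0.927 between strains.

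Subunit transcripts of these complexes did not move together. After centring, 24 of the 54 members (44.4%) were higher in nps1-13, 19 (35.2%) were lower and 11 did not pass the adjusted p threshold of 0.05. Over all genes 42.7% were higher and 34.6% lower, so the shares among the members lay near the background. As deposited, 1 member was higher and 35 were lower, beside 9.41% and 64.3% of all genes. With the trimmed mean 16 were higher and 25 lower, beside 33% and 43.2%, and after quantile normalization 24 were higher and 19 lower, beside 36.4% and 37.7%. The members' median log2 fold change was 0.07, the same as over all genes, and their SD was 0.43 against 0.72 over all genes. Of the 3983 genes within the members' range of mean log2 signal, 39.1% were higher and 40.5% lower after centring. The median of those genes was -0.0048 and their SD was 0.65. On all 4 scales 1 member (NGG1) was higher and 17 were lower, beside 9.41% and 31% of all genes. On the 3 scales that equalise array levels (centred, trimmed mean and quantile, a grouping chosen after the values were seen) 16 were higher and 17 lower, beside 29.6% and 31%. Signals of the strains did not overlap for 28 members higher and 23 lower in nps1-13, beside 49% and 40.3% of all genes.

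**Figure D1:**
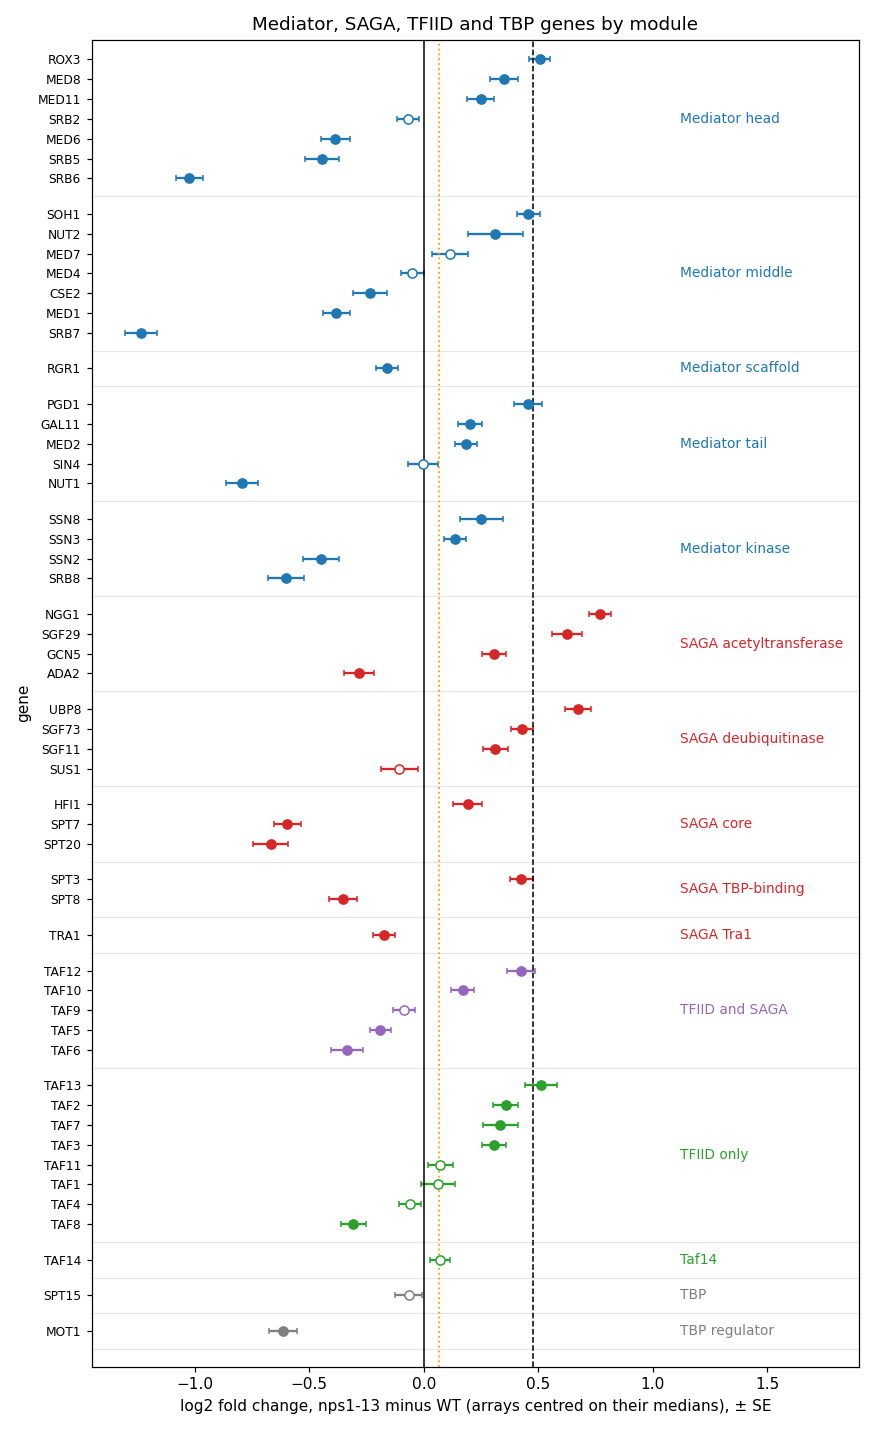
Log2 fold change of each of the 54 members (x axis, nps1-13 minus WT after centring, with the standard error of the fit as bars), grouped by complex and module. Filled points passed the limma threshold and open points did not, the dotted line marks the median of all genes (0.07), and points left of the dashed line at 0.48 had a negative fold change as deposited. Most modules hold points on both sides of 0.

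Changes past 2-fold were few. By the ratio of mean signals after centring, 2 members were below 0.5-fold (SRB7 and SRB6) and 0 were above 2-fold, where 4.96% and 4.88% of all genes were. Without nps1-13 replicate 1, 1 member was below 0.5-fold. After quantile normalization 1 was below 0.5-fold and 0 above 2-fold, beside 4.79% and 4.75% of all genes, and with the trimmed mean 2 and 0, beside 7.13% and 3.72%. As deposited there were 7 (SRB7, SRB6, NUT1, SPT20, MOT1, SRB8 and SPT7), beside 16.7% of all genes, and 0 above 2-fold, beside 1.98%. Tested against a 1.5-fold change with limma's treat, 3 members were lower (SRB7, SRB6 and NUT1) and 1 was higher (NGG1), beside 8.12% and 8.01% of all genes.

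In Mediator, 10 of the 24 measured subunit genes were higher after centring, 10 were lower and 4 did not pass, with a median log2 fold change of -0.03. These shares (41.7% each way) lay beside 42.7% higher and 34.6% lower over all genes. As deposited 0 were higher and 17 (70.8%) lower, with a median of -0.50, beside 9.41% and 64.3% of all genes. The most reduced members of all 54 were in its middle and head modules. SRB7 (MED21), which pairs with Med7 in the middle module, had centred signals of 1501 and 1530.5 in WT and 639.7 and 648 in nps1-13. Both mutant arrays were thus at 42.5% of the WT mean on average, well apart from the WT arrays. Its log2 fold change was -1.24 ± 0.07 (SE, n = 2 arrays per strain, limma adjusted p = 2.3e-07), and it was -1.71 as deposited and -1.09 after quantile normalization. SRB6 (MED22), a head subunit that pairs with Med11, gave 2415 and 2434 in WT and 1173 and 1213 in nps1-13. The groups were again far apart, the mutant mean being 49.2% of WT, with a log2 fold change of -1.02 ± 0.06 (limma adjusted p = 2.29e-07) and -1.50 as deposited. SRB7 and SRB6 lay at percentiles 2.73 and 4.66 of the fold changes of all genes.

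The remaining head genes were divided. SRB5 (MED18, log2 fold change -0.45) and MED6 (-0.39) were lower on all 4 scales. SRB2 (MED20, -0.07), the partner of Srb5 in the head, did not pass after centring. It was lower as deposited (-0.545) and with the trimmed mean (-0.20). ROX3 (MED19) was higher, with signals of 2921 and 2956 in WT and 4193.5 and 4147 in nps1-13. Its groups were separate after centring (0.50 ± 0.05, limma adjusted p = 5.94e-06) but near equal as deposited (0.03). MED8 (0.35) and MED11 (0.25) were also higher after centring, and both were negative as deposited. MED11 did not pass with the trimmed mean (0.12).

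In the middle module SRB7 stood beside MED1 (-0.38), lower on all 4 scales, and CSE2 (MED9, -0.23), lower after centring. CSE2 did not pass after quantile normalization (-0.06). SOH1 (MED31) was higher after centring, with 3983 and 4207 in WT and 5705 and 5533 in nps1-13 (0.46 ± 0.05, limma adjusted p = 1.93e-05), and near equal as deposited (-0.02). NUT2 (MED10, 0.31) was higher after centring, negative as deposited and did not pass with the trimmed mean (0.18). MED4 (-0.05) and MED7 (0.11) did not pass after centring. MED4 was lower as deposited (-0.53) and with the trimmed mean (-0.18). MED7 was lower as deposited (-0.36) and higher after quantile normalization (0.29, limma adjusted p = 0.0068). RGR1 (MED14), the scaffold, gave 2786 and 2875 in WT and 2549.5 and 2514 in nps1-13. This difference was small but without overlap (-0.16 ± 0.05, limma adjusted p = 0.014), was lower on all 4 scales, and did not pass without WT replicate 2 (limma adjusted p = 0.11).

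After centring, the tail module was led downwards by NUT1 (MED5) and otherwise held higher or equal values. NUT1 gave 1496 and 1545 in WT and 852 and 904 in nps1-13. The mutant mean was 1.73-fold lower, a log2 fold change of -0.79 ± 0.07 (limma adjusted p = 4.09e-06) and of -1.27 as deposited. SIN4 (MED16), another tail subunit, was at -0.0047 and did not pass after centring. It was lower as deposited (-0.48) and higher after quantile normalization (0.16, limma adjusted p = 0.046). PGD1 (MED3, 0.46), GAL11 (MED15, 0.20) and MED2 (0.18), which together form the part of the tail that activators such as Gcn4 bind, were higher after centring. All 3 were negative as deposited, where GAL11 and MED2 were called lower (limma adjusted p = 0.027 and 0.024). GAL11 and MED2 also did not pass with the trimmed mean or after quantile normalization. As deposited 4 of the 5 tail genes were lower, beside 64.3% of all genes.

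In the kinase module the structural and the catalytic pair went opposite ways after centring. SRB8 (MED12), which activates the kinase, had 831 and 815 in WT and 539 and 547 in nps1-13. SSN2 (MED13), which tethers the module to Mediator, had 1318 and 1210.1 in WT and 885 and 966 in nps1-13. Both were lower on all 4 scales, with log2 fold changes of -0.60 ± 0.08 (limma adjusted p = 8.34e-05) and -0.45 ± 0.08 (limma adjusted p = 4.81e-04). SSN3 (CDK8), the kinase, gave 2628 and 2629.8 in WT and 2870.4 and 2911 in nps1-13, a log2 fold change of 0.14 (limma adjusted p = 0.025). That small difference turned to -0.34 as deposited, did not pass with the trimmed mean or after quantile normalization, and was lost on leaving out either WT array or nps1-13 replicate 2. SSN8 (cyclin C) was at 0.25 (limma adjusted p = 0.030). It was at -0.22 as deposited and at 0.12 with the trimmed mean, neither of which passed. It did not pass without either WT array or nps1-13 replicate 2.

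**Figure D2:**
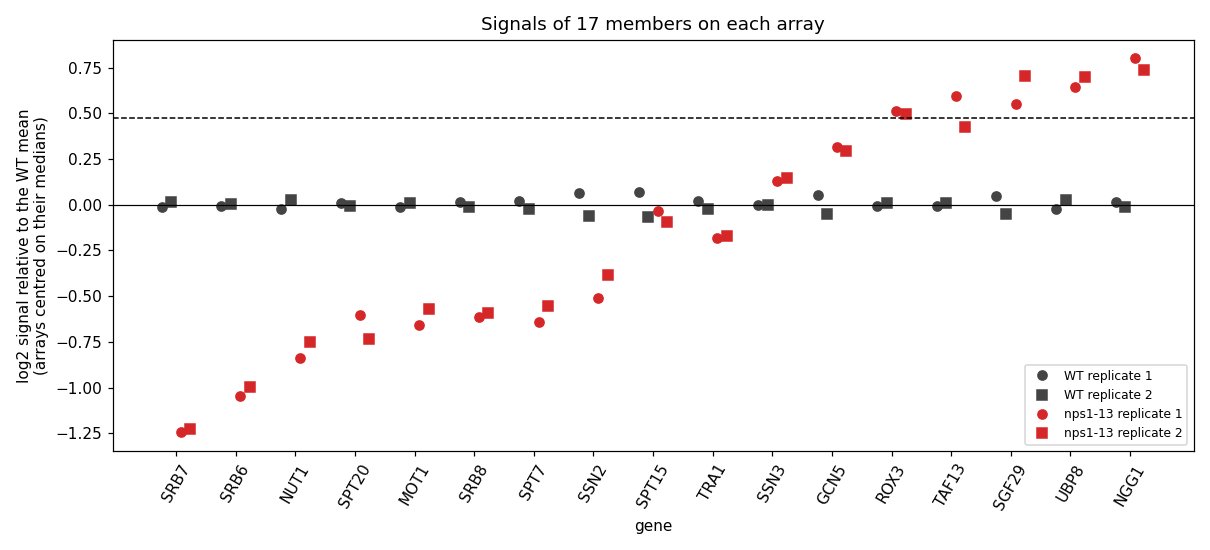
Log2 signal of 17 members on each of the 4 arrays (y axis, relative to the mean of the WT arrays after centring), with circles for replicate 1 and squares for replicate 2, grey for WT and red for nps1-13. Red points of SRB7 and SRB6 lie near or below -1, and those of SPT15 fall among or just below the WT points. Those of NGG1, UBP8, SGF29 and ROX3 lie above the dashed line at 0.48. The line marks no change as deposited for the mean of the nps1-13 arrays, not for a single array.

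In SAGA, 8 of the 14 subunit genes outside the shared TAFs were higher after centring, 5 were lower and SUS1 (-0.11) did not pass. That is 57.1% higher and 35.7% lower, beside 42.7% and 34.6% of all genes. The median log2 fold change was 0.25 after centring and -0.23 as deposited, where 1 was higher and 7 (50.0%) were lower, beside 9.41% and 64.3% of all genes. Of the 8 genes of the acetyltransferase and deubiquitinase modules, 6 were higher after centring, beside 42.7% of all genes, with a median of 0.37. As deposited 1 of them was higher and 2 were lower, with a median of -0.11. Of the 3 core genes 2 were lower on all 4 scales, beside 31% of all genes, with a median of -0.60, or -1.07 as deposited. The difference between these groups of genes was not tested.

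In the acetyltransferase module NGG1 (ADA3), which joins Gcn5 to SAGA, was the member with the highest fold change. Its signals were 3964 and 3895.5 in WT and 6841 and 6546 in nps1-13. The arrays did not overlap, the log2 fold change was 0.77 ± 0.05 (limma adjusted p = 4.6e-07), and the value stayed positive as deposited (0.29, limma adjusted p = 0.013). SGF29, a reader of methylated histone H3, gave 1796.5 and 1679.7 in WT and 2541 and 2828 in nps1-13 (0.63 ± 0.07, limma adjusted p = 1.69e-05), and 0.15 as deposited, which did not pass (limma adjusted p = 0.28). GCN5, the acetyltransferase itself, gave 3093 and 2874 in WT and 3712 and 3653 in nps1-13. It was higher after centring (0.30 ± 0.05, limma adjusted p = 4.64e-04) and turned to -0.17 as deposited. ADA2, the fourth gene of the module, had 1326 and 1324 in WT and 1073 and 1106 in nps1-13, and was lower after centring (-0.28 ± 0.06, limma adjusted p = 0.0028) but not past the threshold after quantile normalization (-0.12, limma adjusted p = 0.11).

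The deubiquitinase module was led by UBP8, the protease, with 1522.5 and 1573 in WT and 2418 and 2515 in nps1-13. It was higher after centring (0.67 ± 0.06, limma adjusted p = 3.18e-06) and did not pass as deposited (0.20, limma adjusted p = 0.15). SGF73 (0.43), which anchors the module to SAGA, and SGF11 (0.31), which activates Ubp8, were also higher after centring, and both were negative as deposited. SUS1, a small subunit that SAGA shares with the nuclear pore-bound TREX-2 complex, did not pass after centring. It was lower as deposited (-0.58) and with the trimmed mean (-0.24).

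SPT20 (ADA5) and SPT7, which hold SAGA together, were lower. SPT20 gave 1182 and 1168 in WT and 772 and 708 in nps1-13, and SPT7 gave 2356 and 2288.5 in WT and 1492 and 1582 in nps1-13. Neither overlapped between strains, with log2 fold changes of -0.67 ± 0.08 (limma adjusted p = 2.74e-05) and -0.60 ± 0.06 (limma adjusted p = 9.51e-06). HFI1 (ADA1), the third core gene, was at 0.19 after centring but lower as deposited (-0.29, limma adjusted p = 0.038). It did not pass with the trimmed mean (0.06). The TBP-binding subunits also differed, since SPT3 (0.43, -0.05 as deposited) was higher after centring and SPT8 (-0.35, -0.83 as deposited) was lower on all 4 scales. TRA1, the activator-binding subunit that SAGA shares with NuA4, gave 3276 and 3178 in WT and 2848 and 2867 in nps1-13. It was lower by a small amount on all 4 scales (-0.18 ± 0.05, limma adjusted p = 0.0076), and did not pass without WT replicate 1 (limma adjusted p = 0.076).

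**Figure D3:**
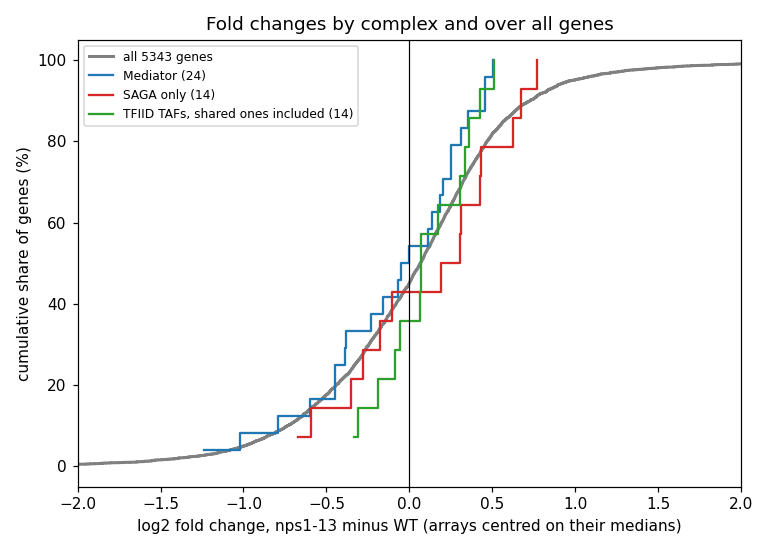
Cumulative share of genes (y axis, percent) against the log2 fold change after centring (x axis, cropped to the range from -2 to 2) for all 5343 genes (grey), Mediator (24 genes, blue), SAGA without shared TAFs (14, red) and the TAFs with the shared ones (14, green). Medians are 0.07, -0.03, 0.25 and 0.07 in that order, and every one of them is negative as deposited (-0.41, -0.50, -0.23 and -0.40).

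TAF genes spanned log2 fold changes from -0.34 to 0.51 after centring, with an SD of 0.27 against 0.47 in Mediator and 0.47 among the SAGA-only genes. Of the 14, 6 were higher, 3 were lower and 5 did not pass after centring, and 0 were past 2-fold or called by treat on that scale. The centred shares were 42.9% higher and 21.4% lower, beside 42.7% and 34.6% of all genes. As deposited 0 were higher and 9 (64.3%) were lower, beside 9.41% and 64.3% of all genes. Among the 5 TAFs that serve both TFIID and SAGA, TAF6 (-0.34) and TAF5 (-0.19) were lower on all 4 scales. TAF12 (0.42, -0.05 as deposited) and TAF10 (0.17) were higher after centring. TAF10 was lower as deposited (-0.31) and did not pass with the trimmed mean. TAF9 (-0.08) did not pass after centring but was lower on the other scales. Its values there were -0.56 as deposited, -0.22 with the trimmed mean and -0.21 after quantile normalization. TAF6 and TAF9 form a histone-fold pair, as do TAF12 and TAF4 in TFIID. Among the 8 genes of TFIID alone, TAF13, TAF2, TAF7 and TAF3 were higher after centring (0.31 to 0.51). As deposited TAF2 was at -0.12, TAF7 at -0.14 and TAF3 at -0.17. TAF8 was lower on all 4 scales (-0.31), and TAF1, TAF4 and TAF11 did not pass after centring. TAF4 was lower as deposited (-0.54) and with the trimmed mean (-0.19), and TAF11 was lower as deposited (-0.40). TAF13 had 1252.5 and 1267 in WT and 1904 and 1692 in nps1-13, apart after centring (0.51 ± 0.07, limma adjusted p = 1.06e-04) and near equal as deposited (0.03). TAF1, which contacts TBP, gave 840.2 and 823 in WT and 876 and 860.0 in nps1-13. The log2 fold change of 0.06 ± 0.07 did not pass (limma adjusted p = 0.46). It was -0.41 as deposited and 0.24 after quantile normalization, where it passed (limma adjusted p = 0.013). TAF14, whose product is also found in chromatin remodellers and other complexes, was at 0.07 and did not pass after centring. As deposited it was lower (-0.41).

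SPT15 and MOT1 were unlike each other. SPT15 gave 7539.6 and 6864 in WT and 7015 and 6729 in nps1-13, so that the groups overlapped, and its log2 fold change of -0.07 ± 0.06 did not pass after centring (limma adjusted p = 0.31). It was lower by the other scales, at -0.54 as deposited, -0.20 with the trimmed mean and -0.22 after quantile normalization (limma adjusted p = 0.0074). MOT1 gave 1915 and 1944 in WT and 1222 and 1299.8 in nps1-13, a clear separation with a log2 fold change of -0.61 ± 0.06 (limma adjusted p = 1.14e-05) and of -1.09 as deposited.

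Differences between the fold changes of partner subunits do not depend on any scaling that multiplies a whole array, because the factor cancels, although quantile normalization can move them. In 30 pairs known to contact each other or share a module, chosen after the values were seen and therefore given as descriptions, the median absolute difference was 0.455 on the log2 scale and 12 pairs were more than 0.5 apart. The calls of single genes do depend on the scaling, unlike the differences. Partners were called in opposite directions in 11 pairs after centring, 10 after quantile normalization, 6 with the trimmed mean and 1 as deposited. Calls in the same direction fell in 8, 9, 6 and 12 pairs, in that order. No pairs of unrelated genes were drawn for comparison, so the gaps and pair counts cannot be read as discord particular to partners. After centring 42.7% of all genes were called higher and 34.6% lower, so unrelated genes would often be called in opposite directions too. The SE of a difference combines the SEs of both genes as if they were independent, although both were read on the same arrays. SRB7 minus MED7 was -1.35 ± 0.10 (SE) and SRB6 minus MED11 was -1.27 ± 0.08, at -1.38 and -1.30 after quantile normalization. These were the widest gaps among the pairs. NGG1 minus ADA2 was 1.05 ± 0.08, or 0.76 after quantile normalization. SPT20 minus HFI1 was -0.86, SRB8 minus SSN8 was -0.85, NUT1 minus SIN4 was -0.79 and SPT3 minus SPT8 was 0.78. In the kinase module SSN2 minus SSN3 was -0.59 and became -0.39 after quantile normalization. SPT15 minus MOT1 was 0.55, or 0.30 after quantile normalization. Among the TAFs, TAF4 minus TAF12 was -0.48, TAF8 minus TAF10 was -0.48 and TAF11 minus TAF13 was -0.44, at -0.46, -0.41 and -0.55 after quantile normalization. Other partners lay close together, such as GAL11 and MED2 (0.02) and SSN3 and SSN8 (-0.11, or -0.30 after quantile normalization).

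Fold changes were also set beside gene length, as a description with no test. Of the 10 members of at least 3000 nt in RefSeq (a length chosen with the values known), 7 were lower on all 4 scales (NUT1, MOT1, SRB8, SPT7, SSN2, TRA1 and RGR1), 2 were higher after centring (TAF2 at 0.36 and GAL11 at 0.20, both negative as deposited), and TAF1 did not pass. Their median log2 fold change was -0.31, against 0.13 for the 44 shorter members, of which 12 were lower and 22 higher after centring. Over the 452 genes of at least 3000 nt on the array, 44.0% were lower on all 4 scales, beside 31% of all genes. After centring 49.1% of these long genes were lower and 30.3% higher, with a median of -0.15, and of the shorter genes 33.3% were lower and 43.9% higher. Across members the log2 fold change had a Pearson r of -0.175 and a Spearman rho of -0.228 with log2 gene length (n = 54 genes, which share the same 4 arrays and are not independent replicates), and across all genes -0.082 and -0.081. With the mean log2 signal the values were 0.357 and 0.360 across members, and 0.093 and 0.227 across all genes. SRB7 and SRB6, the most reduced members, were among the 9 members under 500 nt. The part of gene length and signal level in the members' fold changes was not tested.

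**Figure D4:**
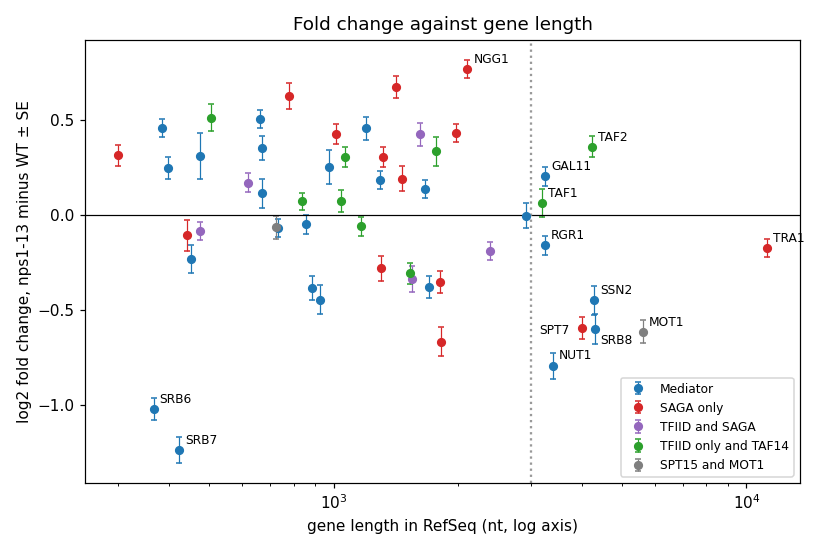
Log2 fold change after centring (y axis, with the standard error of the fit as bars) against gene length in RefSeq (x axis, nt, log axis) for the 54 members, coloured by complex, with a dotted line at 3000 nt. Of the 10 genes right of that line 7 passed as lower, and SRB6 and SRB7 lie lowest at the short end. On the deposited scale every point would lie 0.48 lower.

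Other genes of transcription initiation gave a setting for these values. Of 31 genes of RNA polymerase II and the general factors TFIIA, TFIIB, TFIIE, TFIIF, TFIIH and NC2, 14 (45.2%) were higher and 7 (22.6%) lower after centring (median 0.11), beside 42.7% and 34.6% of all genes. As deposited 1 was higher and 20 (64.5%) were lower, beside 9.41% and 64.3% of all genes. RPB9 (-0.97), a polymerase subunit that acts in start site choice, and TFB5 (-0.95), the smallest TFIIH subunit, were lower by amounts close to that of SRB6. RPB3, a core polymerase subunit, was higher (0.79, and 0.31 as deposited). TFB1 of TFIIH was higher after centring (0.65) and did not pass as deposited (0.18). TOA1 of TFIIA was at 0.37 (-0.11 as deposited), SUA7, which is TFIIB, at -0.35, TFA1 and TFA2 of TFIIE at 0.32 and 0.27 (-0.16 and -0.20), and BUR6 and NCB2 of NC2 at 0.18 and 0.07 (-0.30 and -0.40). In NuA4, the acetyltransferase complex that shares Tra1 with SAGA, 6 of 12 genes were higher and 4 lower after centring, from EAF1, its scaffold (-1.32), to ESA1, its catalytic subunit (0.75), beside 42.7% and 34.6% of all genes. As deposited 1 was higher and 9 were lower, beside 9.41% and 64.3%. RTG2 of the SAGA-like complex SLIK (0.63) and AHC1 of the ADA complex (0.55) were higher after centring. They were 2 of 3 such accessory genes, beside 42.7% of all genes. As deposited 0 of the 3 were higher and 1 was lower, beside 9.41% and 64.3% of all genes.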

How the data were processed

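RNA of WT and nps1-13 cells was hybridised to Affymetrix Yeast Genome 2.0 arrays, 2 per strain. The deposited values are signal intensity on a linear scale, which according to the methods the authors computed with GCOS (version 1.4) and scaled globally, yet array medians differed. The table holds 5558 probe sets, of which 5345 name 1 gene, 0 name several and 213 are unnamed. All 5345 matched RefSeq, which supplied names and gene lengths only, and gave 5343 genes. RMR1, whose symbol is also a synonym of ROX3, and 4 genes with lookalike synonyms (ARN2, COG4, KEX2 and PSA1) were not taken as members. TAF2 overlaps another annotated gene, not measured here.

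Log2 intensities were centred on each array's median and tested with limma 3.58.1 in R 4.3.3 (lmFit, eBayes with a variance trend), p-values being adjusted over 5343 genes by the Benjamini-Hochberg method and called below 0.05. Tables were handled in Python 3.11.15 with pandas 2.3.3 and numpy 2.4.6, and plots drawn with matplotlib 3.10.9. In the fit of the deposited signals the prior degrees of freedom were infinite. Its p-values therefore rest on the spread common to genes of like signal and not on each gene's own spread between arrays. No detection calls were used and no low signals were removed. In simulated arrays of this comparison with 5343 genes, the fit recovered 94% of 67 genes with a 1.5-fold change, 98.5% of 67 with a 2-fold change and 100% of 66 with a 4-fold change, and 0.253% of unchanged genes were called. Simulated noise was independent between genes and arrays, took a common spread for genes of like signal, and held no shift of a whole array. Few genes were changed there, whereas here 42.7% of all genes were called higher and 34.6% lower after centring. The rates of recovery and of false calls therefore describe the simulated setting only. The number of arrays limits the precision. Alternatives were signals as deposited, a common mean trimmed by 2% at each end, quantile normalization, mean signals of at least 100 or 200, an offset of 32, no variance trend, treat at 1.5-fold, replicate blocks, geometric means, means over probe sets and leaving out each array. Members, lists and tests were chosen with earlier results of these data known. Named genes were members that passed in 1 direction on all 4 scales without overlap between strains (up to the 24 with the largest change), SPT15, MOT1, GCN5, UBP8, SSN3, TRA1, RGR1 and TAF1 whatever their values, and the 2 genes of each other list with the largest change. Other members are given by fold change, and those with signals per array (such as ROX3, SGF29, ADA2 and TAF13) were chosen after their values were seen.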

Additional observations from a re-analysis of the deposited data

How the results depend on the processing

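Scaling, the test against 1.5-fold and the choice of arrays moved counts or medians. As deposited, 503 genes were higher and 3435 lower, members counted 1 and 35, 7 members were below 0.5-fold (1 after quantile normalization), and the medians of Mediator, SAGA-only genes and TAFs were -0.50, -0.23 and -0.40. With the trimmed mean these medians were -0.16, 0.12 and -0.060, and after quantile normalization those of Mediator and the TAFs were 0.018 and 0.12. Of the genes named by the rule above, the sign turned as deposited for GCN5 (-0.17), SSN3 (-0.34), TAF1 (-0.41), TOA1 (-0.11), TFA1 (-0.16), TFA2 (-0.20), BUR6 (-0.30) and NCB2 (-0.40). Of all 54 members, 23 took the opposite sign as deposited. That scale differs from centring by a constant 0.48 per gene. Tested against 1.5-fold, 428 genes were higher and 434 lower (members 1 and 3), since treat asks for more than a difference from 0. Leaving out 1 array at a time gave 1957 to 2246 genes higher and 1614 to 1818 lower, 18 to 23 members higher and 17 to 20 lower, 1 to 2 members below 0.5-fold and 0 above 2-fold. It gave medians of -0.050 to -0.0052 for Mediator, 0.21 to 0.27 for SAGA-only genes and 0.068 to 0.11 for TAFs. Among the higher members, NUT2, GAL11, SSN3, SSN8, HFI1 and TAF10 lost their centred call in at least 1 of these fits. Among the lower members, CSE2, RGR1 and TRA1 lost it. MED7 and SUS1 passed without 1 array only. How often the calls of all genes were kept in these fits was not counted. Where leaving out an array leaves 1 array in a strain, that array is assumed to vary like the other strain's.

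Replicate numbers did not pair the arrays (correlation of deviations -0.124 across 5343 genes, 2 pairs). With them as a replicate block, 2249 genes were higher and 1799 lower and members counted 23 and 19, with SSN3 no longer called (limma adjusted p = 0.058). With the crossed pairing, tried after seeing the data, all genes counted 2313 and 1917 and members 24 and 19. The filters on low signal, the offset, the fit without the variance trend and means over probe sets moved no count by over 1.5 times, and geometric means, run for the members past 2-fold only, left 2 below 0.5-fold and 0 above 2-fold. The planned search of promoter letters was not run.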
